A study of Mus musculus with 4 samples.

Results

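A set of 10 transcription factor genes of effector and tissue-resident CD8+ T cells was followed in spleen T cells that carried a Hic1 overexpression vector or an empty vector. They are Tbx21, Zeb2, Prdm1, Id2, Runx3, Batf, Irf4, Bhlhe40, Zfp683 and Ahr, chosen by symbol, and they are 10 of 55401 genes in the count table. The cells were mouse P14 cells, CD8+ T cells whose transgenic receptor recognises lymphocytic choriomeningitis virus, and all had been transduced and were taken after infection with the Armstrong strain. There were 2 libraries with the Hic1 vector and 2 with the empty vector, each from about 1000 resorted cells, and Hic1 itself encodes a zinc finger transcriptional repressor. The sample labels place the cells at day 32 after infection and the series text at day 7, so the stage of the response is uncertain. Both groups came from the spleen, so the factors known for residency are read here in cells outside a barrier tissue. The labels do not give the number of mice or say whether the replicates came from separate animals. Sex-linked genes, given below, place the 2 libraries of each group in different animals.

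These factors set how a CD8+ T cell develops after it meets antigen. T-bet (Tbx21) and Zeb2 drive the short-lived, cytotoxic effector state, and Id2 supports it by binding E proteins and keeping them off DNA. Batf and Irf4 are induced by the T cell receptor and bind DNA as a complex that starts effector differentiation. Blimp-1 (Prdm1), Hobit (Zfp683), Runx3, Bhlhe40 and the ligand-activated receptor encoded by Ahr are known for the formation or upkeep of resident memory cells in tissues such as gut and skin. Many of them act in both programmes, Blimp-1 and Runx3 among them.

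A total of 9 factors had enough counts to test. In a fit with group as the only term, Tbx21 and Runx3 fell with the Hic1 vector, none rose and 7 did not pass. Tbx21 was 1.79-fold lower and Runx3 1.63-fold lower, and no tested factor had a fitted difference above 2-fold. The p-values come from the quasi-likelihood test of edgeR, adjusted by Benjamini-Hochberg over the 11676 genes that passed a filter on low counts, and a gene was called at an adjusted p below 0.05. By this rule 1.82% of all tested genes were called, 0.719% as higher and 1.10% as lower. With a term for the replicate number added to the fit, 794 of the 11676 genes were called, 378 higher and 416 lower. Of the factors, that fit called Tbx21, Runx3 and Zeb2 lower and Batf and Bhlhe40 higher. At an unadjusted p below 0.05, without that term, were 19.1% of all tested genes, 9.41% higher and 9.70% lower. These shares stand beside the list counts below. On simulated data the code recovered 26 of 97 genes changed 2-fold, so a factor that did not pass may still differ.

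The sequences before the start sites of Tbx21 and Runx3 are shown because these 2 genes fell, and that of Batf because it had the highest positive fold change among the factors. Each is the 250 bases before an annotated start in RefSeq, build GRCm38.p6, printed 5′ to 3′ on the gene's strand. Capitals mark matches on either strand to GGGCA, the core bound by HIC1 in human cells, to TGTGGT, a RUNX site, or to CACCTG, an E-box bound by ZEB proteins.
Tbx21, chr11:97115332-97115581, minus strand: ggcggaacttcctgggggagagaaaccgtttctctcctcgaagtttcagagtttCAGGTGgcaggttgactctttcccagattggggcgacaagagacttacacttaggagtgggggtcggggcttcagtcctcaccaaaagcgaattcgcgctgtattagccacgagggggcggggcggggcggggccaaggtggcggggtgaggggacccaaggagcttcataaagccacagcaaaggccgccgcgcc
Runx3, upstream start, chr4:135120395-135120644, plus strand: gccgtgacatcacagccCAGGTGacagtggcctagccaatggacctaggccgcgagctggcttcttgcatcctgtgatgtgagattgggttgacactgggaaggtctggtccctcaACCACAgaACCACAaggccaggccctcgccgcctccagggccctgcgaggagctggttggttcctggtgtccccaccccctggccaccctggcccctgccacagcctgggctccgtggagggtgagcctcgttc
Batf, chr12:85686470-85686719, plus strand: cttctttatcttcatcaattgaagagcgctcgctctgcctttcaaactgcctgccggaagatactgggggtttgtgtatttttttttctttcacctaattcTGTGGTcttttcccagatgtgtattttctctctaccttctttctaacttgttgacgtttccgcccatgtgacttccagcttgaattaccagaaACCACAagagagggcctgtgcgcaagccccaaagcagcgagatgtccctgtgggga

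In these windows the Tbx21 and upstream Runx3 sequences each held 1 E-box match, and the upstream Runx3 and the Batf sequence each held 2 RUNX matches. None of the 3 held GGGCA, which was present in 47.7% of the 32851 promoter windows of the same length. TGTGGT was present in 14% and CACCTG in 17.2% of those windows. Of the 10 factors 7 had an entry, and Bhlhe40, Zfp683 and Ahr did not. Among the other entries GGGCA occurred 3 times before the most upstream of 4 Zeb2 starts, 2 times before Prdm1, and 1 time each before Id2, Irf4 and the downstream start of Runx3. The longer form GGGCACC was in 3.88% of all windows and in none of these 11, and GGTGTGA, a T-box site, was in 3.33% and in none of the 11. A match is a stretch of letters and not a measured binding site, and counts per gene do not tell which start of Runx3 or Zeb2 was used.

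Total counts were 7501285 and 8839317 in the Hic1 vector libraries and 4017346 and 3941364 in the empty vector libraries, which made the Hic1 vector group the deeper one. Hic1 had 314 and 161 counts with the Hic1 vector, against 3 and 5 with the empty vector, as the labels say. Xist had 3590 and 3 counts in Hic1 vector replicates 1 and 2, against 1885 and 0 in empty vector replicates 1 and 2. The Y-linked Eif2s3y had 0 and 951 counts in the Hic1 vector replicates, against 0 and 396 in the empty vector replicates. The number thus separates female-type from male-type libraries, so the 2 libraries of a group do not share a single donor animal. Differences within a number are given for each tested factor. Levels are given as CPM, counts scaled to the effective library size by TMM, the trimmed mean of M-values. The defining CD8+ T cell genes were high in both groups, with Cd8a at 814.2 CPM on average with the Hic1 vector and 686.8 CPM with the empty vector, and Cd3e at 920.0 CPM with the Hic1 vector and 872.6 CPM with the empty vector, while Cd4 had at most 5 counts in any library. Of 10 B cell markers Ighm rose (217.5 CPM with the Hic1 vector and 72.93 CPM with the empty vector, adjusted p = 0.00706 by edgeR's quasi-likelihood test), whereas Ms4a1 had at most 2 counts in any library. Cd79b, also of this list, had 270 and 117 counts with the Hic1 vector and 67 and 13 with the empty vector. It did not pass (adjusted p = 0.417 by edgeR's quasi-likelihood test). Of the 4 tested B cell markers, 3 had a log2 fold change above 0 and 1 below. Summed over that list the level was 284 and 218 CPM with the Hic1 vector, against 84.7 and 102 CPM with the empty vector. Ighm made up most of it, at 237.9 and 197.1 CPM with the Hic1 vector and 61.41 and 84.44 CPM with the empty vector. Of 10 NK cell markers Klra8 rose (8.226 CPM with the Hic1 vector and 0.3676 CPM with the empty vector, adjusted p = 0.0206 by the same test), a call lost with limma voom (0.0907) and in edgeR when Hic1 vector replicate 1 (0.0749) or empty vector replicate 1 (0.128) was omitted. Ncr1 had at most 2 counts in any library, and the list summed to 143 and 156 CPM with the Hic1 vector and to 76.9 and 81.7 CPM with the empty vector. Of the 7 tested genes of this list, 4 were higher and 1 lower at an unadjusted p below 0.05. Klrb1c was among the higher ones, at 64.67 CPM with the Hic1 vector and 36.55 CPM with the empty vector (adjusted p = 0.0885 by edgeR's quasi-likelihood test). No gene of the myeloid, CD4 or erythroid lists was called by edgeR, DESeq2 or limma voom, and at an unadjusted p below 0.05 there was 1 myeloid gene, 1 CD4 gene and no erythroid gene. Whether other cells had a part in the values of the factors was not tested. In bulk libraries fewer cells with a transcript and less of it per cell cannot be told apart.

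**Figure D1:**
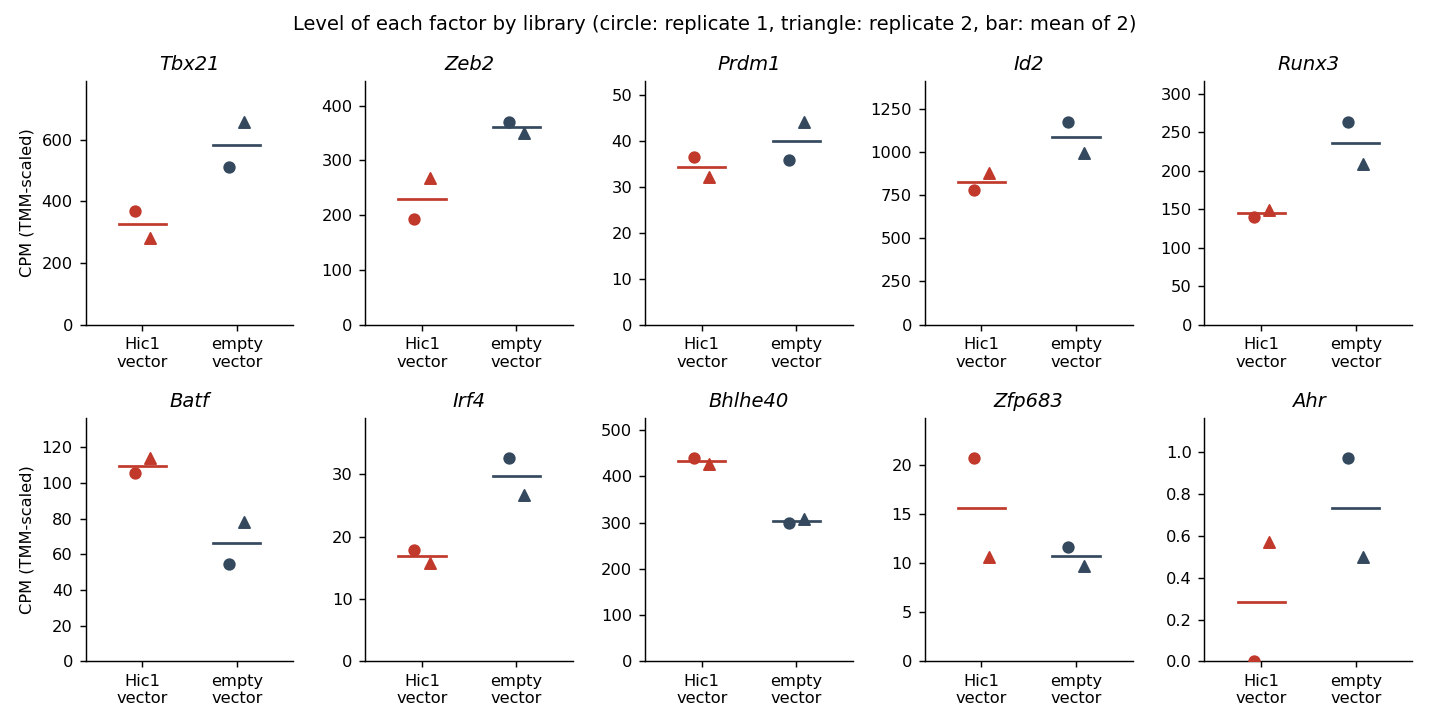
Level of each of the 10 factors in each library, in CPM (counts scaled to library size with TMM factors) on axes that start at 0, for the Hic1 vector (left) and the empty vector (right); circles are replicate 1, triangles replicate 2 and bars the mean of 2 libraries. Tbx21, Zeb2, Id2, Runx3 and Irf4 lie lower with the Hic1 vector in both libraries, Batf and Bhlhe40 lie higher, and Prdm1, Zfp683 and Ahr overlap.

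Tbx21, which encodes the T-box factor that switches on cytotoxic and chemokine receptor genes, was at 370.0 and 281.0 CPM in Hic1 vector replicates 1 and 2, against 510.0 and 658.6 CPM in empty vector replicates 1 and 2. Both Hic1 vector libraries lay below both empty vector libraries, and the replicates numbered 2 were farther apart than those numbered 1. The log2 fold change was -0.84 ± 0.17 (SE, n = 2 per group; adjusted p = 0.043 by edgeR's quasi-likelihood test), with log2 differences of -0.46 within number 1 and -1.23 within number 2. The gene (ENSMUSG00000001444, chromosome 11, positions 97098071 to 97115331, minus strand, mm10) overlaps no other annotated exon. In edgeR fits with 1 library omitted, the call was lost when empty vector replicate 1 (-1.01, adjusted p = 0.0693), empty vector replicate 2 (-0.66, 0.0959) or Hic1 vector replicate 2 (-0.65, 0.102) was the one left out, and it held when Hic1 vector replicate 1 was (-1.05, 0.00326). With all 4 libraries it was also lost without the robust option of edgeR (adjusted p = 0.0527).

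Zeb2, a zinc finger E-box repressor that acts with T-bet in terminal effector cells, was at 192.6 and 267.9 CPM in Hic1 vector replicates 1 and 2, against 370.9 and 350.8 CPM in the empty vector replicates. The groups did not overlap, and Hic1 vector replicate 1 was the lowest library. The log2 fold change was -0.65 ± 0.165 (SE), which did not pass (adjusted p = 0.0694 by edgeR's quasi-likelihood test), with -0.94 within number 1 and -0.39 within number 2. DESeq2 called the same difference (adjusted p = 0.0242) and limma voom did not (0.0807). An edgeR fit that also had a term for the replicate number called the difference (-0.67, adjusted p = 0.0225). It was -0.42 without Hic1 vector replicate 1 (adjusted p = 0.236 by edgeR) and -0.90 without Hic1 vector replicate 2 (0.0182). Zeb2os, the antisense gene that shares exon positions with it, had 17 and 4 counts with the Hic1 vector and 16 and 15 with the empty vector, small beside the 1368 to 2351 counts of Zeb2.

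Id2, the inhibitor that lacks a DNA-binding region of its own, was at 777.3 and 875.5 CPM with the Hic1 vector and 1174 and 992.6 CPM with the empty vector. Each Hic1 vector library was below each empty vector library, by a margin of about the SD of the empty vector group. Its log2 fold change was -0.39 ± 0.129 (SE) and did not pass (adjusted p = 0.134 by edgeR's quasi-likelihood test), and the within-number differences were -0.59 and -0.18.

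Runx3, the Runt-domain factor that maintains CD8 identity and silences Cd4, was at 139.5 and 149.7 CPM in the Hic1 vector replicates, against 263.9 and 209.1 CPM in the empty vector replicates. The Hic1 vector libraries were close together and below both empty vector libraries. The log2 fold change was -0.71 ± 0.157 (SE; adjusted p = 0.0475 by edgeR's quasi-likelihood test), with -0.92 within number 1 and -0.48 within number 2. The gene (ENSMUSG00000070691, chromosome 4, positions 135120652 to 135177990, plus strand, mm10) overlaps no other annotated exon. Its adjusted p lay just under the threshold, and the call was lost with DESeq2's size factors in edgeR (adjusted p = 0.0505), with limma voom (0.0623), without the robust option of edgeR (0.0678) and without empty vector replicate 1 (-0.53, adjusted p = 0.358), Hic1 vector replicate 1 (0.0932) or Hic1 vector replicate 2 (0.0835), while DESeq2's own test called it (0.00973).

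Prdm1, the zinc finger repressor shared by terminal effector and resident cells, was at 36.61 and 32.25 CPM with the Hic1 vector and 35.92 and 44.22 CPM with the empty vector. The groups overlapped, since Hic1 vector replicate 1 lay above empty vector replicate 1. This gave a log2 fold change of -0.22 ± 0.223 (SE; adjusted p = 0.648 by edgeR's quasi-likelihood test), with 0.027 within number 1 and -0.45 within number 2.

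Zfp683, which encodes Hobit, a Blimp-1 homologue of resident lymphocytes, was at 20.7 and 10.6 CPM with the Hic1 vector and 11.65 and 9.744 CPM with the empty vector. Only Hic1 vector replicate 1 stood above the other 3 libraries. Its log2 fold change of 0.53 ± 0.371 (SE) did not pass (adjusted p = 0.477 by edgeR's quasi-likelihood test), with 0.81 within number 1 and 0.12 within number 2. Left without Hic1 vector replicate 1 it was -0.01, so the positive value came from that library.

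Ahr, the receptor for dietary and bacterial aromatic compounds that sustains resident T cells in skin and gut, was close to the limit of detection and was not tested. It had 0 and 5 counts in the Hic1 vector libraries and 4 and 2 in the empty vector libraries. The count of 0 in Hic1 vector replicate 1 allows up to 0.422 CPM (3 counts, counting error only), and no fold is given at these counts. Of 10 genes known to respond to Ahr, 2 had enough counts to test and neither passed, with 0 called by edgeR, DESeq2 or limma voom and 1 lower at an unadjusted p below 0.05. Gpr15, a homing receptor gene, had a log2 fold change of -1.51 ± 0.667 (SE) at 7 and 3 counts with the Hic1 vector and 9 and 11 with the empty vector, and Tiparp one of -0.26 ± 0.24. Cyp1a1, the classical Ahr target, had no count in any library.

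Batf, the AP-1 family partner of Irf4, was at 105.6 and 113.8 CPM with the Hic1 vector, against 54.61 and 78.2 CPM with the empty vector. Both Hic1 vector libraries were above both empty vector libraries. The log2 fold change of 0.72 ± 0.19 (SE) did not pass (adjusted p = 0.0738 by edgeR's quasi-likelihood test), with 0.95 within number 1 and 0.54 within number 2. It passed in an edgeR fit that also had a term for the replicate number (0.74, adjusted p = 0.023). With 1 library omitted it ran from 0.49 without empty vector replicate 1 (adjusted p = 0.455 by edgeR) to 0.99 without empty vector replicate 2 (0.0334), and of the 4 such fits only the one without empty vector replicate 2 called it.

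Irf4, whose level rises with the strength of the T cell receptor signal, was at 17.88 and 15.84 CPM with the Hic1 vector and 32.53 and 26.73 CPM with the empty vector. Each Hic1 vector library lay below each empty vector library, and the within-number differences of -0.85 and -0.74 were alike. At 107 to 139 counts per library the log2 fold change of -0.80 ± 0.261 (SE) did not pass (adjusted p = 0.128 by edgeR's quasi-likelihood test). Batf and Irf4, which bind DNA together, thus had fold changes of opposite sign, and neither passed.

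Bhlhe40, a basic helix-loop-helix repressor that supports mitochondrial function and cytokine production in resident cells, was at 438.8 and 427.3 CPM with the Hic1 vector, against 299.8 and 307.5 CPM with the empty vector. The libraries of each group were nearly equal and the groups were well apart. Its log2 fold change of 0.51 ± 0.128 (SE) did not pass (adjusted p = 0.0658 by edgeR's quasi-likelihood test), and the within-number differences were 0.55 and 0.47. It passed in an edgeR fit that also had a term for the replicate number (0.51, adjusted p = 0.0213). DESeq2 called it (adjusted p = 0.0415), whereas limma voom (0.0698) and the 4 edgeR fits with 1 library omitted did not. Its overlapping antisense gene, 0610040F04Rik, had at most 4 counts in a library.

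**Figure D2:**
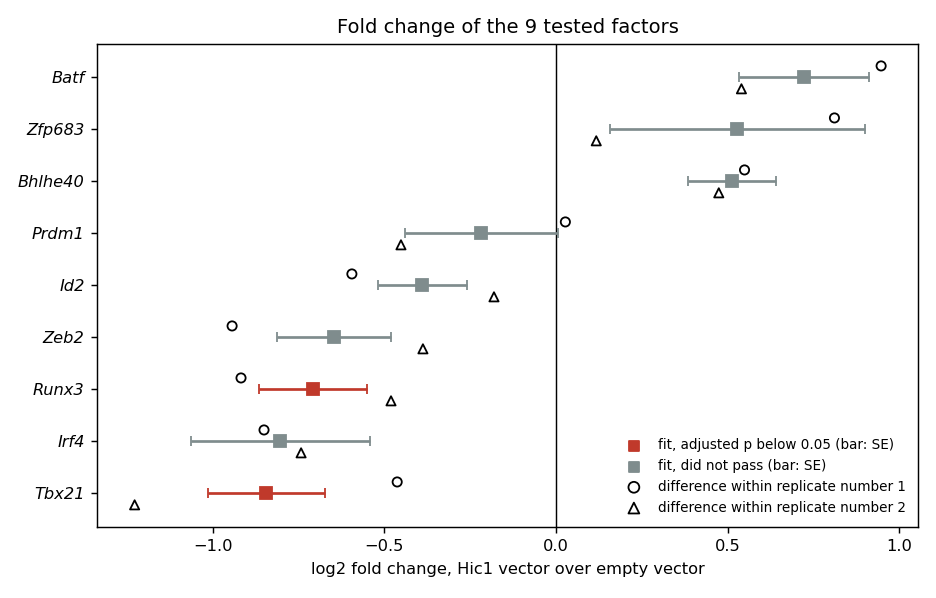
Log2 fold change, Hic1 vector over empty vector, of the 9 tested factors in order of their value; squares with bars are the fitted value and its SE, red where the adjusted p was below 0.05, and open circles and triangles are the differences within replicate numbers 1 and 2. Tbx21 (-0.84) and Runx3 (-0.71) are the 2 red squares, and Prdm1 is the single factor whose within-number differences lie on both sides of 0.

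As a set, 6 of the 9 tested factors had a log2 fold change below 0 and 3 above 0, with a median of -0.39, beside a median of 0.009 over all genes tested. The groups did not overlap for 7 of the 9, 5 of them lower and 2 higher, but the same was true of 51.4% of all tested genes, 24.9% in the lower and 26.5% in the higher direction. At an unadjusted p below 0.05 there were also 7 of the 9, 5 lower and 2 higher, beside 19.1% of all tested genes, 9.70% lower and 9.41% higher. The summed CPM of the 10 factors was 2100 and 2170 with the Hic1 vector and 2750 and 2680 with the empty vector. Id2 and Tbx21 made up most of the difference between these sums.

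**Figure D3:**
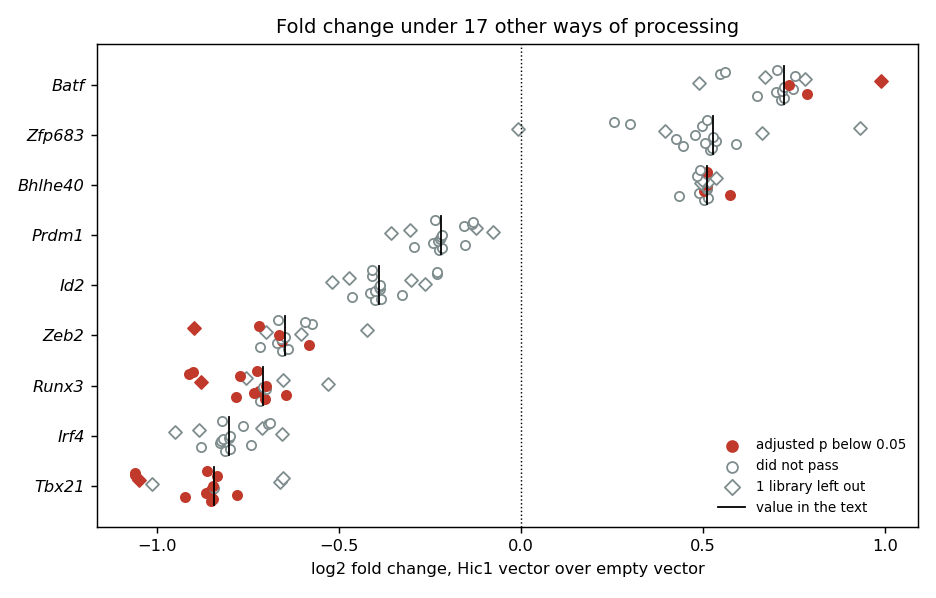
Log2 fold change, Hic1 vector over empty vector, of each tested factor under 17 other ways of processing (circles, or diamonds where 1 library was left out), filled where the adjusted p was below 0.05; the black line is the value given in the text. Tbx21 was called in 13 and Runx3 in 11 of the 17, Zeb2 in 5, Bhlhe40 in 4, Batf in 3, and Prdm1, Id2, Irf4 and Zfp683 in none.

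To set the factors beside one another, counts were divided by the median transcript length of each gene and scaled to the same sum in each library (TPM). Id2 was the most abundant at 626.9 ± 61.7 TPM with the Hic1 vector and 870.9 ± 107 TPM with the empty vector (SD, n = 2 each). With the Hic1 vector, Bhlhe40 reached 269.3 ± 1.17 TPM, Batf 142.1 ± 9.61 TPM, Zeb2 126.0 ± 30.9 TPM and Tbx21 125.8 ± 22.5 TPM. With the empty vector, Tbx21 reached 239.6 ± 42.1 TPM, Zeb2 209.0 ± 9.14 TPM, Bhlhe40 200.2 ± 2.76 TPM and Batf 91.11 ± 22.5 TPM. By the median length, Bhlhe40, Tbx21 and Zeb2 did not differ beyond their spread with the empty vector. With the Hic1 vector, by the same length, Bhlhe40 stood clear of Tbx21, Zeb2 and Batf. There Tbx21, Zeb2 and Batf did not differ among themselves beyond their spread. Far lower were Zfp683 at 10.21 ± 4.53 TPM, Prdm1 at 10.13 ± 0.76 TPM and Irf4 at 3.408 ± 0.242 TPM with the Hic1 vector, and Prdm1 at 12.5 ± 1.78 TPM, Zfp683 at 7.424 ± 0.968 TPM and Irf4 at 6.354 ± 0.906 TPM with the empty vector. Prdm1 and Zfp683 did not differ beyond their spread with the Hic1 vector, and Ahr was below 1 TPM in each library. Runx3 was at 340.2 ± 21.9 TPM with the Hic1 vector and 589.6 ± 99 TPM with the empty vector, but its place in this order rests on the length used: its mean over the 4 libraries was 464.9 TPM with the median and 96.09 TPM with the longest transcript. Zeb2 likewise moved to 63.46 TPM from 167.5 TPM and Tbx21 to 358.2 TPM from 182.7 TPM with the longest transcript. The comparisons of Tbx21 and Zeb2 above are thus given for the median length only.

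Relatives of the factors, which share their DNA-binding family, gave no call in edgeR, DESeq2 or limma voom, and 1 of the 6 tested (Eomes) had an unadjusted p below 0.05. Eomes, the T-box relative of Tbx21, was at 8.895 CPM with the Hic1 vector and 18.81 CPM with the empty vector, with a log2 fold change of -1.04 ± 0.36 (SE; adjusted p = 0.148 by edgeR's quasi-likelihood test) and -1.70 and -0.54 within the 2 numbers, so the point estimate of both T-box genes lay below 0. Zeb1, the relative of Zeb2, was at 20.10 CPM with the Hic1 vector and 19.66 CPM with the empty vector, and Id3, the relative of Id2, was at 2.842 CPM with the Hic1 vector and 3.909 CPM with the empty vector. Runx1 was at 80.92 CPM with the Hic1 vector and 74.11 CPM with the empty vector, and Runx2 was at 161.6 CPM with the Hic1 vector and 176.7 CPM with the empty vector. Batf2, Batf3, Bhlhe41 and Id1 had at most 6 counts in any library and were not tested.

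The log2 ratio of 2 genes within 1 library does not depend on the scaling between libraries. The ratio of Runx3 to Runx1 counts was 0.63 and 1.06 with the Hic1 vector, against 1.82 and 1.5 with the empty vector, a difference of -0.82 with no overlap. That of Irf4 to Irf8 was 0.08 and 0.62 with the Hic1 vector, against 0.89 and 0.74 with the empty vector. That of Prdm1 to Zfp683 was 0.82 and 1.6 with the Hic1 vector, against 1.61 and 2.17 with the empty vector, where the groups all but touch. The groups overlapped in the ratio of Tbx21 to Eomes, at 5.92 and 4.57 with the Hic1 vector and 4.64 and 5.25 with the empty vector. They also overlapped in that of Zeb2 to Zeb1, at 2.88 and 4.25 with the Hic1 vector and 4.06 and 4.34 with the empty vector. The same held for Id2 to Id3, Batf to Batf3 and Bhlhe40 to Bhlhe41, where the lowest count of the relative was 7, 0 and 0. With 2 libraries per group an exact permutation test of such a ratio cannot give a two-sided p below 0.333, and these ratios are given as a description, with no test run.

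Of 22 partner proteins of the factors, 19 were tested, and none was called by edgeR, while DESeq2 called 1 higher and 1 lower, limma voom called none, and 4 were higher and 1 lower at an unadjusted p below 0.05. Adding a term for the replicate number to the edgeR fit gave 3 called higher and 1 lower. The same fit called 794 of all 11676 tested genes. Junb, whose protein pairs with Batf, was at 290.9 CPM with the Hic1 vector and 175.1 CPM with the empty vector, with a log2 fold change of 0.73 ± 0.167 (SE; adjusted p = 0.0503 by edgeR's quasi-likelihood test) and 0.78 and 0.67 within the 2 numbers, and it was the one partner called higher by DESeq2 (0.0135). Cbfb, the partner that stabilises Runx proteins, was at 31.78 CPM with the Hic1 vector and 27.57 CPM with the empty vector. Ptges3, a chaperone of the Ahr complex, had -0.94 ± 0.23 (adjusted p = 0.062 by edgeR, 0.0257 by DESeq2), and Ctbp1, a corepressor bound by Zeb2 and by HIC1, had 0.85 ± 0.233 (adjusted p = 0.0834 by edgeR). Tcf3 and Tcf12 encode E proteins held by Id2. Tcf3 was at 42.21 CPM with the Hic1 vector and 28.97 CPM with the empty vector, and Tcf12 at 33.05 CPM with the Hic1 vector and 28.14 CPM with the empty vector.

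Of 20 effector genes tied to T-bet or Zeb2, Cxcr3 rose and the other 19 did not pass. DESeq2 and limma voom also called none lower, and at an unadjusted p below 0.05 there were 2 higher and 4 lower. An edgeR fit that also had a term for the replicate number called 2 higher and 4 lower. Over all 11676 tested genes that fit called 378 higher and 416 lower. Cxcr3, a chemokine receptor gene that T-bet is known to induce, was at 342.4 CPM with the Hic1 vector and 154.7 CPM with the empty vector, with a log2 fold change of 1.14 ± 0.166 (SE; adjusted p = 0.0122 by edgeR's quasi-likelihood test) and 1.34 and 0.92 within the 2 numbers, so it and Tbx21 moved in opposite directions. Its call was lost without empty vector replicate 1 (1.16, adjusted p = 0.092 by edgeR). Il18rap, a chain of the interleukin 18 receptor, had -0.47 ± 0.121 (adjusted p = 0.0729 by edgeR). The median of the list was -0.15.

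Of 12 genes that Blimp-1 or Hobit repress, 10 were tested, Tcf7 and Myc rose and 8 did not pass (0 lower by DESeq2 or limma voom and at an unadjusted p below 0.05). Myc, a growth regulator gene, was at 46.99 CPM with the Hic1 vector and 18.36 CPM with the empty vector, with a log2 fold change of 1.34 ± 0.239 (SE; adjusted p = 0.0238 by edgeR's quasi-likelihood test) and within-number differences of 1.57 and 1.10. Myc was not called when empty vector replicate 1 was omitted (1.26, adjusted p = 0.176 by edgeR). Tcf7, the factor of stem-like T cells, was called in each of its 17 alternatives, with values of 1.81 to 2.17. Tcf7 was also the one call among 12 factors that oppose the effector state, a list whose median was 0.14, beside -0.39 for the 9 tested effector and residency factors. The factors and lists were chosen with earlier results of these data known, so these medians are a description only.

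Of 27 tissue residency genes, 22 were tested, P2rx7 and Cxcr6 rose and 20 did not pass, and the median was 0.26. At an unadjusted p below 0.05 there were 5 higher and 2 lower, and DESeq2 called 3 higher and limma voom 2 higher, with none lower by either. Adding a term for the replicate number to the edgeR fit gave 4 called higher and 0 lower, where 378 of all 11676 tested genes were higher. P2rx7, an ATP-gated channel gene, was called under each alternative, and Cxcr6, a chemokine receptor gene, lost its call without empty vector replicate 1 (0.72, adjusted p = 0.143 by edgeR) or replicate 2 (0.62, adjusted p = 0.0671). Of 10 genes of the CD8 lineage and its choice against the CD4 lineage, where Runx3 acts, 9 were tested, none was called by edgeR, DESeq2 or limma voom, and 2 were higher at an unadjusted p below 0.05. Their median was 0.29, and Gata3, a zinc finger factor gene, had 0.48 ± 0.187 (SE; adjusted p = 0.193 by edgeR). Gata3 was the 1 gene of this list called when the edgeR fit also had a term for the replicate number (0.49, adjusted p = 0.0423).

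**Figure D4:**
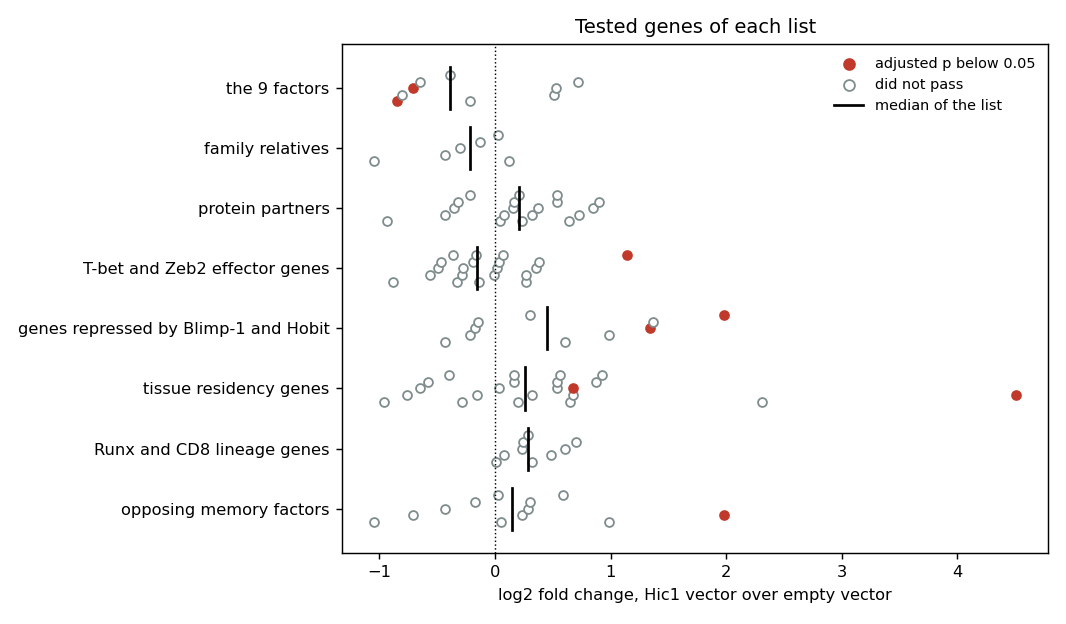
Log2 fold change, Hic1 vector over empty vector, of every tested gene in the 9 factors and in 7 lists related to them, filled where the adjusted p was below 0.05, with a line at each list's median. The median is -0.39 for the factors and 0.45 for the genes that Blimp-1 and Hobit repress, and the point at the far right is P2rx7 of the residency list.

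The genes whose profile over the 4 libraries was closest to each called factor were found among 6299 other protein-coding genes with a mean of at least 20 CPM, by the Euclidean distance between log2 CPM values centred on each gene's mean. For Tbx21 they were Trim12c (0.198), Epb41l2 (0.202) and Ankrd54 (0.212), and for Runx3 they were Znrf3 (0.023), Cltc (0.035) and Atic (0.046). With 4 libraries a close profile is easily met, and none of these 6 genes was called, with log2 fold changes of -0.67 to -0.76 and adjusted p of 0.0597 to 0.152 by edgeR's quasi-likelihood test.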

How the data were processed

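Messenger RNA of sorted mouse P14 CD8+ T cells was measured by Smart-seq2, per the labels' protocols. The deposited table used here holds raw read counts per gene and library. The submitters' processing notes name the genome mm10 and, without role or order, featureCounts 1.5.3, DESeq2 1.3.2, STAR 2.5.2b and Trimmomatic 0.38. Annotation, read layout and use of strand: not given in the sources used here. A second, normalized table of the same libraries was not used.

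The filter was edgeR's filterByExpr (version 4.0.16, at least 10 counts and a total of 15). TMM factors scaled the libraries, and group was the one term of the robust quasi-likelihood test at a prior count of 2. SE is the log2 fold change divided by the square root of F. DESeq2 1.42.0 and limma 3.58.1 served as alternatives, under R 4.3.3. On simulated data the code recovered 26 of 97 genes changed 2-fold and 98 of 101 changed 4-fold, with 5 false calls each. Lengths, GC content and coordinates come from GENCODE M21 (GRCm38), with coordinates given where the gene version matched. Totals ran from 3941364 to 8839317 counts, and reads without molecular identifiers limit counting intervals to counting error. P-values measure the spread between these samples. With group as the only term, the spread within each group includes the difference between a female-type and a male-type library.

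The factors and lists were chosen with earlier results of these data known. All 10 factors and any relative or partner could be named, and in other lists called genes and the 4 of lowest p. Cd8a, Cd3e, Cd4, Ms4a1, Ncr1 and Cyp1a1 are named as defining markers or targets.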

Additional observations from a re-analysis of the deposited data

Results flagged for a closer look

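Prdm1 moved in opposite directions in the 2 pairs of libraries that share a replicate number, with a log2 difference of 0.027 within number 1, the female-type libraries, and -0.452 within number 2, the male-type libraries. The first value is close to 0, each rests on 1 library per group, and the difference between them was not tested.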

How the results depend on the processing

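With 2 libraries per group the calls rest on few residual degrees of freedom, and depth limits Ahr, Zfp683 and Irf4 most. The sign of each tested factor was the same under all 17 alternatives except Zfp683, whose value ran from -0.008 to 0.932 when 1 library was left out. Of the other genes recomputed under the alternatives, which leave out Zeb1, Id3, Runx2 and several more that are named, Runx1 (-0.035 to 0.281) and Irf8 (-0.682 to 0.019) also changed sign over these omissions, and none of the 3 was called. Factors called lower numbered 1 with DESeq2's size factors in edgeR, 1 with limma voom and 0 without the robust option, against 2. Factors called higher numbered 2 without a filter on low counts, 1 with DESeq2, 2 with the replicate block and 1 with GC correction and the block, against 0. Leaving out 1 library gave 0 to 1 factors higher and 0 to 1 lower. Over all genes 84 were called higher and 129 lower. Library size alone called 70 higher and 251 lower (21.8% higher, against 39.4%), and no filter 461 and 358. DESeq2 called 152 and 266, limma voom 33 higher, the fit without the robust option 47 higher, and GC correction 29 and 76 (27.6% higher). GC correction with the block called 229 lower. Leaving out 1 library called 6 to 87 higher and 2 to 232 lower; the extreme was without empty vector replicate 1, with 8 calls, 6 of them among the 213. The replicate block called 378 higher and 416 lower, and with it Zeb2 (-0.67), Batf (0.74) and Bhlhe40 (0.51) passed beside Tbx21 and Runx3. So did Junb (0.72), Ptges3 (-0.95), Ctbp1 (0.85), Il18rap (-0.46) and Gata3 (0.49), and with the block 2 of the T-bet and Zeb2 effector genes were called higher and 4 lower, against 1 and 0. The labels do not say what a number marks, and the deviations of same-numbered libraries correlated at 0.239 over genes, with only 2 numbers. With all libraries thinned to the depth of the shallowest, Tbx21 (-0.84), Runx3 (-0.77) and Zeb2 (-0.72) were called. GC correction moved Tbx21 to -1.06 and Runx3 to -0.91, both called. The causes of these moves were not tested.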
